A study of Mus musculus with 27 samples.

Results

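The difference between lobular zones 2 and 3 of the mouse liver at day 16 of pregnancy was measured in 6 libraries, 3 of zone 2 and 3 of zone 3, of the 27 libraries in the series. The zones were cut from frozen liver sections by laser microdissection, in which a laser under the microscope separates chosen areas of a section, and their RNA was sequenced after removal of ribosomal RNA. The mice were wild-type females, C57BL/6 in the labels and C57BL/6N in the study's methods, and the series holds non-pregnant mice (NP) and mice 8 or 16 days after mating (dpc8 and dpc16), each with zones 1, 2 and 3 in 3 replicates. No transgene, virus or drug is given for any of these groups, so genotype, strain and sex are shared by all of them. Genes were compared if their FPKM (a fragment count corrected for the length of the transcript and the depth of the library) reached at least 1 in at least 3 of the 6 libraries. Of the 21823 genes in the table, 11037 met this rule.

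The liver lobule is a field of hepatocytes between the portal vein, where blood enters, and the central vein, where it leaves. Zone 1 lies around the portal vein, zone 3 around the central vein and zone 2 between them. Periportal hepatocytes are known for urea synthesis, gluconeogenesis and amino acid breakdown, whereas pericentral hepatocytes make glutamine and carry out much of drug metabolism. Wnt signals from the endothelium of the central vein are known to maintain the pericentral programme, in which β-catenin acts with the DNA-binding TCF and LEF factors.

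The zone labels were compared with marker lists. All 15 pericentral markers had a higher mean level in zone 3 and 10 of them were called, and all 14 periportal markers had a higher mean level in zone 2, with 11 called. Over all genes tested, 0.381% were called higher in zone 3 and 0.227% higher in zone 2. The lists were chosen with earlier results of these data known. They hold Glul, Cyp1a2, Axin2 and Cyp17a1, which the study reports as zonal in these samples, so this is no independent check of the labels. Replicate 3 of both zones at dpc16 stood apart from the other 4 libraries. Transcripts of 4 Y-linked genes summed to 23.2 FPKM in zone 2 replicate 3 and 16.6 FPKM in zone 3 replicate 3 and were listed at 0 in the other 4, although the label of every sample is female. In the same pair, 16 connective tissue and smooth muscle genes summed to 6048 and 3358 FPKM against 65.5 to 107.6 FPKM in the others, and albumin took 7.98% and 9.59% of the summed FPKM against 15.2% to 21.0%. A list of 6 hepatocyte genes summed to 58666 and 83600 FPKM in this pair against 173799 to 257251 FPKM in the others, and the main counts are also given without this pair. Depth estimated from the steps between low FPKM values was 11.8 to 33.2 megareads in the 6 libraries. In such bulk samples, fewer cells of a type cannot be told apart from less RNA per cell. The labels do not tie the dissected areas to animals, so the p-values measure only the spread between samples, and they are too small if areas of the same zone share an animal.

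**Figure D1:**
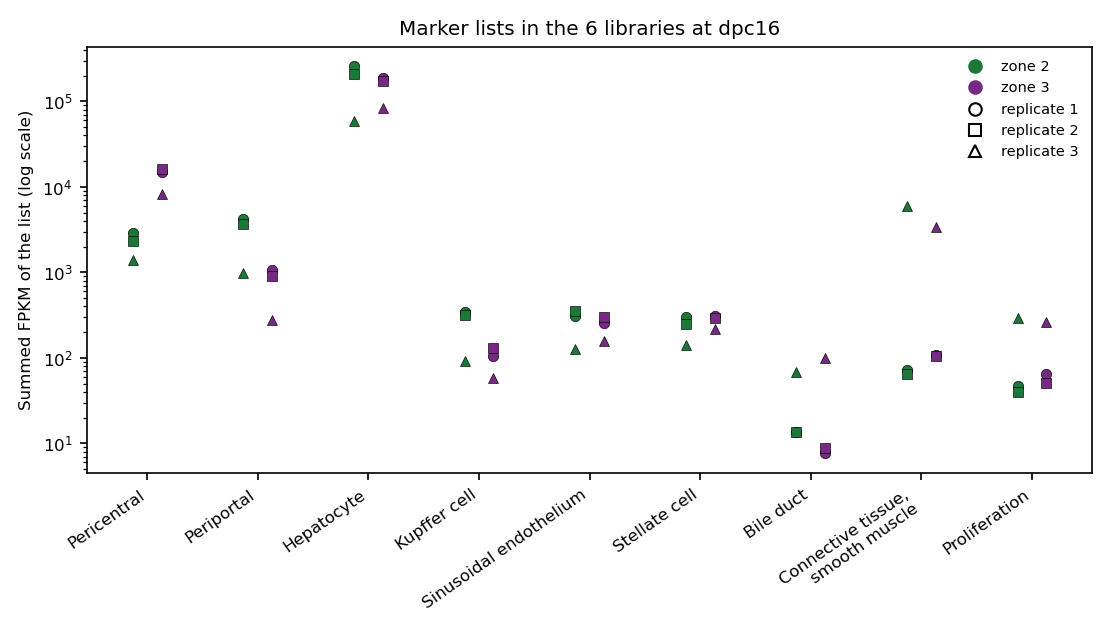
Summed FPKM of marker lists (vertical log axis) in the 6 dpc16 libraries, with 1 symbol per library, coloured by zone and shaped by replicate. Replicate 3 of both zones lies above the others for connective tissue and smooth muscle genes (6048 and 3358 FPKM) and below them for hepatocyte genes, while the pericentral list is higher in zone 3 and the periportal list higher in zone 2 within every replicate number.

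At dpc16, 67 of the 11037 genes differed between zone 2 and zone 3, which is 0.607% of the genes tested. The higher level lay in zone 2 for 25 genes (0.227%) and in zone 3 for 42 genes (0.381%). Individual enzymes of serine, histidine, glutamine and steroid metabolism and a pair of macrophage genes were higher in zone 2. Glutamine synthetase, ammonium and organic cation transporters, Wnt feedback genes and several cytochromes P450 of the Cyp2c family were higher in zone 3. The test was limma on log2(FPKM + 1) over all 27 libraries with a threshold of 0.05 on the adjusted p, and differences below are zone 2 minus zone 3 on this log2 scale, with the standard error. Because 1 is added before the logarithm, folds of genes with low FPKM come out too small on it. In all 67 genes the 3 values of one zone lay beyond the 3 values of the other, which held for 802 genes in all (7.27%), while 492 genes had an unadjusted p under the threshold. The median difference over all genes tested was 0.01, with 5729 differences above 0 and 5308 below. Counts by sign in the lists and families below are to be read beside these.

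Libraries with the same replicate number deviated together at dpc16 (correlation of their deviations from the zone means 0.58, 0.62 and 0.84), and a fit with the replicate as a block called 120 genes, 49 higher in zone 2 and 71 higher in zone 3, including all 67. The deviations within a zone cancel out, and replicate 3 stood apart in both zones. These correlations therefore cannot show that replicates 1 and 2 are paired. Without both of these replicate 3 libraries and the others of the series in which the Y-linked transcripts summed to over 5 FPKM, 108 genes were called, 54 in each direction, and 61 of the 67 were among them. The 6 others were Prodh, Gstm6, Nrn1, Rdh1, Fitm1 and 4933427D14Rik, whose adjusted p then lay between 0.0599 and 0.171. Leaving out 1 library at a time gave 31 calls without zone 3 replicate 1, 38 without zone 2 replicate 2, 39 without zone 3 replicate 2, 47 without zone 2 replicate 1, 55 without zone 3 replicate 3 and 89 without zone 2 replicate 3. In 29 of the 67 genes the call was kept in each of these 6 fits. With a pseudocount of 0.1 in place of 1, the calls of Axin2, Rspo3, Cyp2c38, Sult3a2, Slc22a2, Crybb3, Fitm1, Nxpe2, Rdh1, Chrdl2 and Col23a1 were lost. With no filter on low values, those of Oat, C9, Prodh, Aspscr1, Fitm1 and Nxpe2 were lost. When the fit held only the 6 libraries compared, which leaves few degrees of freedom, 11 genes were called, among them Cyp2f2, Aldh1b1, Aspg, Slc1a2, Glul, Rhbg, Cyp2c69, Lect2, Gstm2 and Tnfrsf19.

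**Figure D2:**
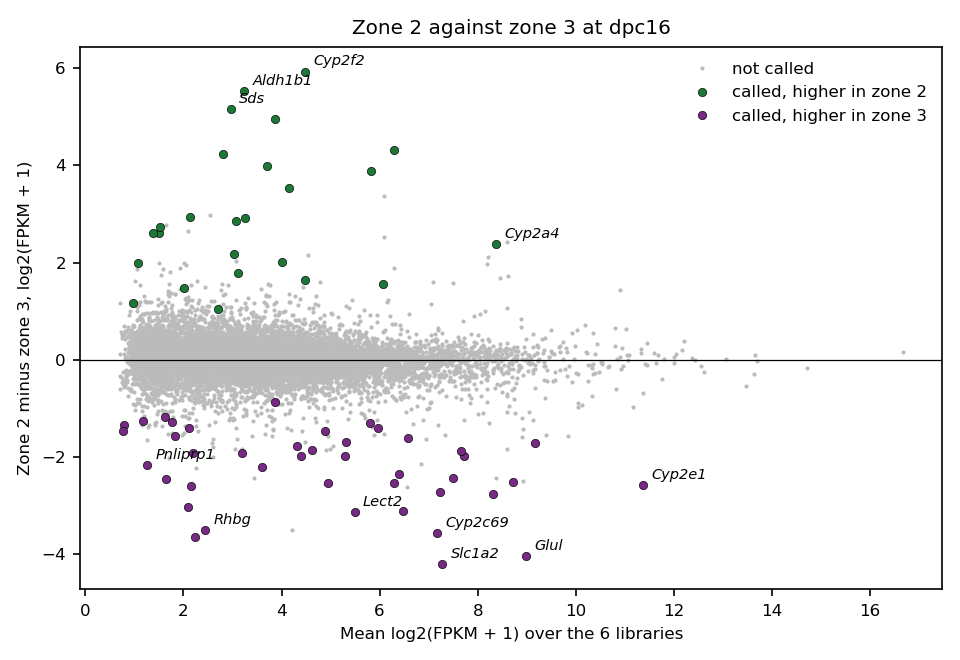
Difference between zone 2 and zone 3 at dpc16 (vertical axis, log2(FPKM + 1)) against the mean level over the 6 libraries (horizontal axis, same scale) for the 11037 genes tested. The 25 called genes higher in zone 2 reach a difference of 5.93 (Cyp2f2) and the 42 higher in zone 3 reach -4.22 (Slc1a2), while most genes lie close to 0.

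The largest difference in favour of zone 2 was that of Cyp2f2 (chr7:27119909-27133660, plus strand, mm10), a cytochrome P450 used as a periportal marker, with 285, 177 and 101 FPKM in zone 2 and 2.203, 3.06 and 0.764 FPKM in zone 3. Each zone 2 library lay far above each zone 3 library, and the difference was 5.93 ± 0.52 (adjusted p = 4.86e-07). Aldh1b1, a mitochondrial aldehyde dehydrogenase, had 115, 84.1 and 26.2 FPKM in zone 2 and 0.6, 0.468 and 0.146 FPKM in zone 3, a difference of 5.53 ± 0.45 (adjusted p = 2.82e-07). In zone 3 its values stayed under 1 FPKM in all 3 libraries, and in zone 2 the lowest was that of replicate 3.

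Of the amino acid breakdown list, 4 genes were called higher in zone 2. Sds (chr5:120476526-120483932, plus strand), serine dehydratase, had 71.9, 95.9 and 13.6 FPKM in zone 2 and 0.0737, 1.06 and 0 FPKM in zone 3, and the difference was 5.17 ± 0.60 (adjusted p = 1.65e-05). Its close relative Sdsl had 10.3, 11.5 and 1.89 FPKM in zone 2 and 0, 0 and 0.386 FPKM in zone 3, with a difference of 2.73 ± 0.41 (adjusted p = 5.25e-04). Both genes were listed at 0 in at least 1 zone 3 library and ranged from 1.89 FPKM upwards in zone 2. Hal, histidine ammonia-lyase, which starts histidine breakdown, had 131, 116 and 33.8 FPKM in zone 2 and 1.63, 3.53 and 0.493 FPKM in zone 3 and a difference of 4.96 ± 0.58 (adjusted p = 1.65e-05). Uroc1, urocanase, the next enzyme of that pathway, had 174, 139.5 and 61.7 FPKM in zone 2 and 45.8, 36.4 and 33.6 FPKM in zone 3, a smaller difference of 1.56 ± 0.33 (adjusted p = 0.0226). The groups did not overlap for any of these 4 genes. The Uroc1 call was lost without zone 2 replicate 1 or 2 or zone 3 replicate 1, 2 or 3, with differences from 1.26 to 2.00 over the 6 fits that left out 1 library.

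The list held 29 tested genes, of which Prodh was called higher in zone 3, these 4 were called higher in zone 2 and 24 were not called. Of the 29 differences 17 were below 0 and the median was -0.13, and it was 0.45 without zone 2 replicate 3. Without the libraries with Y-linked transcripts 6 were called higher in zone 2, with Amdhd1 and Ftcd added, and 1 in zone 3, Hpd in place of Prodh. Prodh, proline dehydrogenase, had 14.4, 13.04 and 9.15 FPKM in zone 2 and 46.0, 49.9 and 42.4 FPKM in zone 3, a difference of -1.86 ± 0.42 (adjusted p = 0.039), and this call was lost in each of the 6 fits that left out a library (-1.98 to -1.68). Aspg, an asparaginase-like enzyme, was also higher in zone 2, at 30.7, 46.2 and 17.96 FPKM in zone 2 and 0.709, 1.06 and 0.181 FPKM in zone 3, with a difference of 4.25 ± 0.44 (adjusted p = 3.59e-06). Etnppl, a phospholyase acting on phosphoethanolamine, had 15.0, 5.54 and 1.47 FPKM in zone 2 and 0, 0.121 and 0.0342 FPKM in zone 3 and a difference of 2.60 ± 0.53 (adjusted p = 0.0172), lost without zone 2 replicate 1 or 2 or zone 3 replicate 1, 2 or 3 (1.94 to 3.29). For both genes the lowest zone 2 value was that of replicate 3, and it still exceeded every zone 3 value.

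**Figure D3:**
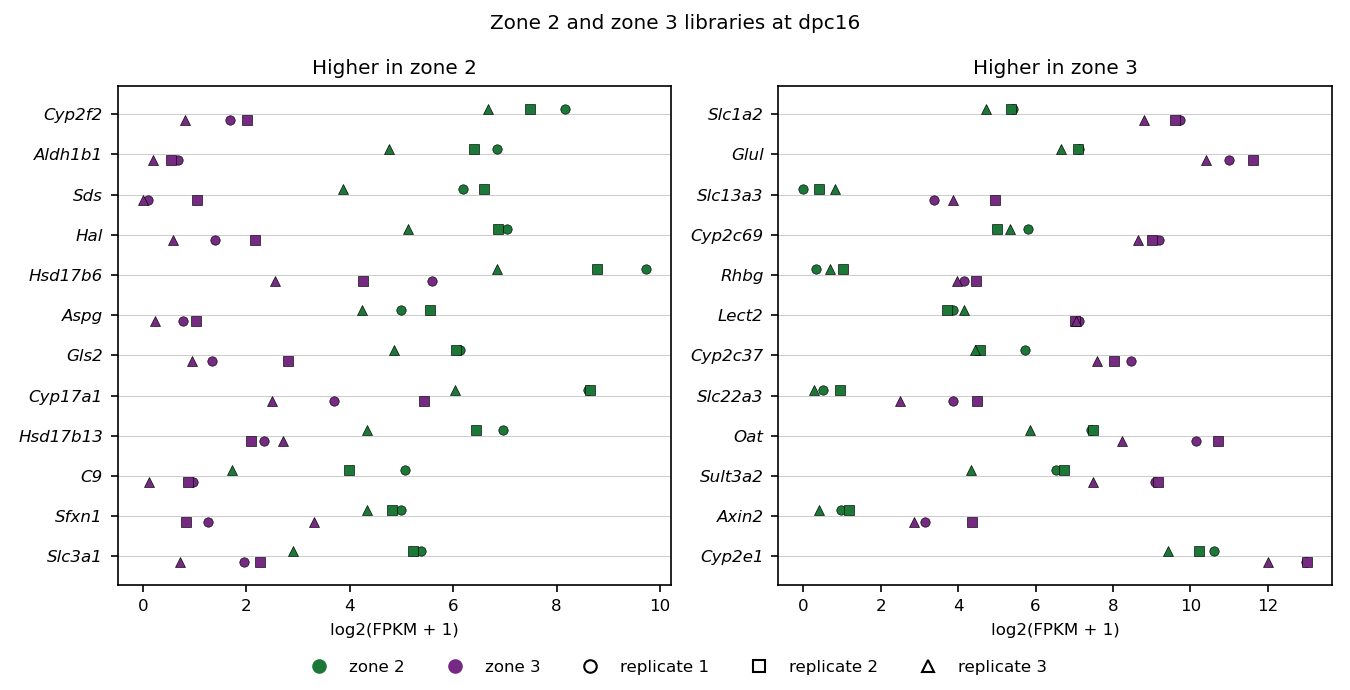
Values in each of the 6 libraries at dpc16 (horizontal axis, log2(FPKM + 1)) of the 12 genes per direction with the largest differences, with 1 symbol per library, coloured by zone and shaped by replicate. The zones do not overlap for any of the 24 genes, and replicate 3 is the lowest zone 2 library for each of the 12 genes on the left.

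Gls2, the liver glutaminase, which releases ammonia from glutamine, had 69.3, 65.4 and 28.1 FPKM in zone 2 and 1.54, 6.02 and 0.935 FPKM in zone 3. The difference was 3.98 ± 0.55 (adjusted p = 2.08e-04), and the zone 2 libraries lay well above all zone 3 libraries. Genes of steroid and lipid metabolism came next. Hsd17b6, a steroid dehydrogenase, had 849, 442 and 114 FPKM in zone 2 and 47.5, 18.3 and 4.86 FPKM in zone 3, with a difference of 4.32 ± 0.66 (adjusted p = 6.58e-04). Cyp17a1, the enzyme that converts progestagens to androgen precursors, had 391, 401 and 64.7 FPKM in zone 2 and 11.9, 42.2 and 4.64 FPKM in zone 3, and its difference was 3.89 ± 0.63 (adjusted p = 0.00137). In both genes the levels of replicate 3 were the lowest of their zone. Hsd17b13, a lipid droplet enzyme, had 124, 85.98 and 19.1 FPKM in zone 2 and 4.08, 3.25 and 5.58 FPKM in zone 3, a difference of 3.53 ± 0.46 (adjusted p = 1.07e-04). Cyp2a4, a steroid hydroxylase whose reads may be shared with the near-identical Cyp2a5, had 1127, 849.9 and 448 FPKM in zone 2 and 140.0, 139 and 154 FPKM in zone 3 and a difference of 2.38 ± 0.50 (adjusted p = 0.0205). Its call was lost without zone 2 replicate 1 or 2 or zone 3 replicate 1, 2 or 3, with differences of 2.09 to 2.76.

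Some transporter genes were also called higher in zone 2. Sfxn1, a mitochondrial serine carrier, had 30.7, 27.3 and 19.2 FPKM in zone 2 and 1.39, 0.781 and 8.97 FPKM in zone 3 and a difference of 2.91 ± 0.42 (adjusted p = 3.84e-04). Zone 3 replicate 3 was higher than the other zone 3 replicates, and still below the lowest zone 2 value. Slc3a1, a subunit of a cystine and basic amino acid transporter, had 40.4, 36.3 and 6.48 FPKM in zone 2 and 2.90, 3.81 and 0.657 FPKM in zone 3, a difference of 2.85 ± 0.51 (adjusted p = 0.0053), and was not called without zone 2 replicate 1 or 2 (2.38 to 3.64). Ctsc, a lysosomal protease, had 50.9, 42.9 and 14.2 FPKM in zone 2 and 5.97, 12.7 and 4.43 FPKM in zone 3 and a difference of 2.02 ± 0.43 (adjusted p = 0.0223), not called without zone 2 replicate 1 or 2 or zone 3 replicate 1 or 3 (1.68 to 2.57). C9, the last component of the complement membrane attack complex, had 32.7, 14.9 and 2.33 FPKM in zone 2 and 0.964, 0.844 and 0.095 FPKM in zone 3. Its zone 2 libraries spread widely and its difference was 2.94 ± 0.64 (adjusted p = 0.0272), lost without zone 2 replicate 1 or 2 or zone 3 replicate 1, 2 or 3 (2.199 to 3.87). C9 was the only called gene among the 19 complement genes tested, whose median difference was -0.10 (0.40 without zone 2 replicate 3), and Cfp, properdin, which is outside the list and was named after its values were seen, was called with 1.78 ± 0.35 (adjusted p = 0.0114) and lost without zone 2 replicate 1 or 2 or zone 3 replicate 1 or 3 (1.49 to 2.32).

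The remaining calls in favour of zone 2 were named after their values were seen. Eci3, an enoyl-CoA isomerase, had 10.7, 6.63 and 2.90 FPKM in zone 2 and 0, 0.0499 and 0.435 FPKM in zone 3, with a difference of 2.62 ± 0.37 (adjusted p = 3.05e-04) that was kept in all 6 fits that left out a library. Crybb3 (2.18), 4933427D14Rik (1.99), Fam49a (1.47) and Ptpre (1.176) had smaller differences, and each lost its call in 2 to 4 of the 6 fits. Without zone 2 replicate 2, for example, none of the 4 was called.

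On the zone 3 side, the 2 largest differences belonged to a glutamate transporter and to glutamine synthetase. Slc1a2 (chr2:102658659-102790784, plus strand), the transporter, had 41.5, 40.1 and 25.5 FPKM in zone 2 and 848, 784 and 447 FPKM in zone 3, and the difference was -4.22 ± 0.47 (adjusted p = 1.20e-05). Glul (chr1:153899944-153909723, plus strand), glutamine synthetase, which fixes ammonia in glutamine, had 138, 137 and 101 FPKM in zone 2 and 2039, 3152 and 1349 FPKM in zone 3. The zone 3 mean was 17.4 times the zone 2 mean, and the difference was -4.04 ± 0.43 (adjusted p = 5.22e-06). Rhbg, an ammonium transporter, had 0.262, 1.03 and 0.615 FPKM in zone 2 and 16.7, 21.1 and 14.6 FPKM in zone 3 and a difference of -3.51 ± 0.37 (adjusted p = 5.22e-06). Each of these 3 genes was called in all 6 fits that left out 1 library and in all 8 fits with another choice of samples, block, pseudocount, filter, scaling or weights.

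Oat, ornithine aminotransferase, which feeds ornithine into glutamate, had 171, 178 and 56.5 FPKM in zone 2 and 1126, 1675 and 300.1 FPKM in zone 3. Its difference was -2.78 ± 0.62 (adjusted p = 0.0346), with a wide spread in zone 3, and it was not called without zone 2 replicate 1, 2 or 3 or zone 3 replicate 1 or 2 (-3.51 to -2.24). Lhpp, a phosphatase, lies close to Oat on chromosome 7 and had 57.1, 55.2 and 14.8 FPKM in zone 2 and 247, 266 and 104 FPKM in zone 3, a difference of -2.36 ± 0.43 (adjusted p = 0.00585), not called without zone 3 replicate 1 or 2 (-2.79 to -1.74). Both genes overlap the annotated span of Fgfr2. Of the 14 glutamine and glutamate genes tested, 4 were called higher in zone 3 (Glul, Slc1a2, Rhbg and Oat), 1 was called higher in zone 2 (Gls2) and 9 were not called. The others included Glud1, glutamate dehydrogenase, at 486, 432 and 197 FPKM in zone 2 and 649, 599.5 and 365 FPKM in zone 3, whose difference was -0.59 ± 0.30 (adjusted p = 1). Slc38a3, a glutamine transporter, was at 519.7, 614 and 250.3 FPKM in zone 2 and 519, 605 and 379 FPKM in zone 3, and its zones overlapped.

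Some carriers of organic ions and dicarboxylates were also called, and part of them was named after their values were seen. Other Slc22 genes, such as Slc22a5 and Slc22a18, were not called. Among the uncalled Slc22 genes, Slc22a7 (1.34) and Slc22a15 (0.04) had differences above 0 and the others below. Slc13a3, a sodium-dependent dicarboxylate carrier, had 0, 0.313 and 0.762 FPKM in zone 2 and 9.37, 30.0 and 13.5 FPKM in zone 3, a difference of -3.66 ± 0.36 (adjusted p = 1.89e-06). The organic cation transporters Slc22a2 and Slc22a3, which lie close together on chromosome 17, were both called higher in zone 3. Slc22a3 had 0.41, 0.938 and 0.214 FPKM in zone 2 and 13.5, 21.5 and 4.66 FPKM in zone 3 and a difference of -3.04 ± 0.38 (adjusted p = 5.16e-05). Slc22a2 was at 1.40, 1.40 and 0.828 FPKM in zone 2 and 4.28, 4.07 and 4.58 FPKM in zone 3, and its difference was -1.28 ± 0.19 (adjusted p = 5.41e-04). The zones did not overlap for either gene. The Slc22a3 and Plg genes overlap on opposite strands, and how far reads of one enter the other was not tested.

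Slco1b2, a hepatic uptake carrier for organic anions, had 173, 109.8 and 58.9 FPKM in zone 2 and 521, 454 and 240.0 FPKM in zone 3 and a difference of -1.88 ± 0.38 (adjusted p = 0.0137), not called without zone 2 replicate 2 or 3 or zone 3 replicate 1 or 2 (-2.24 to -1.47). Slc16a10, an aromatic amino acid carrier, had 15.4, 7.97 and 7.38 FPKM in zone 2 and 39.5, 41.4 and 27.7 FPKM in zone 3 and a difference of -1.77 ± 0.33 (adjusted p = 0.00747), not called without zone 2 replicate 2 or zone 3 replicate 1 or 2 (-2.08 to -1.60). Over all 218 Slc and Slco genes tested, 7 (3.21%) were called higher in zone 3 and 1, Slc3a1, higher in zone 2, while 132 had a difference below 0 and the median was -0.07. This family was formed after the values were seen.

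Among 16 Wnt target and feedback genes tested, 3 were called higher in zone 3, none higher in zone 2, and the median difference was -0.75. Of the 16 differences 11 were below 0 and 5 above, the highest at 0.59. The share called higher in zone 3 over all genes tested was 0.381%. Axin2, a feedback inhibitor of β-catenin, had 0.972, 1.26 and 0.325 FPKM in zone 2 and 7.90, 19.6 and 6.24 FPKM in zone 3. Zone 3 replicate 2 was the highest, the zone 2 values stayed near or under 1 FPKM, and the difference was -2.60 ± 0.53 (adjusted p = 0.0168). Notum, a secreted enzyme that inactivates Wnt proteins, had 7.63, 7.24 and 1.57 FPKM in zone 2 and 32.6, 25.5 and 19.5 FPKM in zone 3, a difference of -2.21 ± 0.47 (adjusted p = 0.0223). Sp5, a transcription factor gene induced by Wnt signalling, had 0, 0.064 and 0 FPKM in zone 2 and 2.03, 2.59 and 1.09 FPKM in zone 3, a difference of -1.47 ± 0.24 (adjusted p = 0.00139). Axin2 was not called without zone 2 replicate 1 or 3 or zone 3 replicate 1 or 2 (-2.90 to -2.15) and Notum without zone 2 replicate 3 or zone 3 replicate 1 or 2 (-2.51 to -1.64), whereas Sp5 was called in all 6 fits.

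Some further members of the Wnt list had non-overlapping zones without a call, and non-overlapping zones held for 7.27% of all genes tested. Lgr5, the R-spondin receptor, had 0.147, 0.175 and 2.14 FPKM in zone 2 and 4.72, 4.598 and 8.06 FPKM in zone 3 and a difference of -2.03 ± 0.52 (adjusted p = 0.0984). Tbx3, a transcription factor, had 14.6, 25.5 and 8.47 FPKM in zone 2 and 63.8, 77.2 and 35.7 FPKM in zone 3, a difference of -1.86 ± 0.48 (adjusted p = 0.112), and Rnf43, a ubiquitin ligase that removes Wnt receptors, had 8.19, 10.1 and 5.15 FPKM in zone 2 and 20.4, 33.1 and 16.5 FPKM in zone 3, a difference of -1.45 ± 0.38 (adjusted p = 0.121). With the replicate block Tbx3 and Rnf43 passed (adjusted p = 0.0253 and 0.00717), which made 5 called genes in the list, and Lgr5 did not (0.0922). Without the libraries with Y-linked transcripts Lgr5 passed instead (adjusted p = 0.00325). Tnfrsf19, a receptor of the tumour necrosis factor family that is outside the list and was named after its values were seen, had 0.293, 0.275 and 0.41 FPKM in zone 2 and 5.61, 6.48 and 6.87 FPKM in zone 3 and a difference of -2.46 ± 0.42 (adjusted p = 0.003).

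Of the Wnt ligands and R-spondins, 5 of 8 were tested and only Rspo3, an R-spondin made by central vein endothelium, was called, at 2.00, 0.868 and 0.561 FPKM in zone 2 and 5.63, 7.12 and 3.24 FPKM in zone 3, with a difference of -1.57 ± 0.32 (adjusted p = 0.0168). It was not called without zone 2 replicate 2 or 3 or zone 3 replicate 1 or 2 (-1.84 to -1.36) or with a pseudocount of 0.1 (adjusted p = 0.0708). Wnt2 had 1.20, 1.54 and 1.42 FPKM in zone 2 and 3.97, 3.93 and 3.89 FPKM in zone 3, and its difference of -1.05 ± 0.32 (adjusted p = 0.285) did not pass although the zones did not overlap. Wnt9b did not reach the filter, with 0.0981, 0.0844 and 0 FPKM in zone 2 and 0.945, 1.96 and 0.579 FPKM in zone 3. Of the 6 central vein endothelium markers tested, Rspo3 alone was called, and the median was -0.81 (-1.25 without zone 2 replicate 3).

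To show the sequences in front of some of these genes, windows from 250 bases before to 50 bases after the RefSeq start (build GRCm38.p6) were searched on both strands for CTTTGAA, a common form of the TCF and LEF binding motif, and for the form CTTTGAT with another last letter. On the opposite strand a match is printed as its reverse complement. The 2 words differ in their last letter, so they cannot occupy the same bases of 1 strand. Windows were found for 32 of the 42 genes higher in zone 3 and 20 of the 25 higher in zone 2. Either word occurred in 9 of the 32 genes (28.1%) and in 3 of the 20 (15.0%), against 2671 of all 27025 genes (9.88%). Other words were searched as well. GCGTG, the core of the element bound by the Ahr receptor, occurred in 6 of the 32 (18.8%) and 8 of the 20 (40.0%), against 35.2% of all genes. The core promoter box TATAAA occurred in 8 of the 32 (25.0%) and 4 of the 20, against 15.7%. A match is a description of the letters and was not tested as a binding site. The windows printed here are those of 5 genes higher in zone 3 and of Hal, higher in zone 2, with the match to either TCF and LEF word in capitals. All of the printed windows hold a match, whereas the windows of Glul and Axin2, both higher in zone 3, hold none. The Slc1a2 window lies at a start inside the annotated gene.
Slc1a2 (chr2:102706188-102706487, plus strand): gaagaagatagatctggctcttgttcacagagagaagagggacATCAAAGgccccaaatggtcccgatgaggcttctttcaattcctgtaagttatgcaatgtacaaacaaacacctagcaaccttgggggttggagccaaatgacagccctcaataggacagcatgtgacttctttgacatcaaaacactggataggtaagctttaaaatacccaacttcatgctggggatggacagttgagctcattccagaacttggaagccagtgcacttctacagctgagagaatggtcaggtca
Cyp2e1 (chr7:140763569-140763868, plus strand): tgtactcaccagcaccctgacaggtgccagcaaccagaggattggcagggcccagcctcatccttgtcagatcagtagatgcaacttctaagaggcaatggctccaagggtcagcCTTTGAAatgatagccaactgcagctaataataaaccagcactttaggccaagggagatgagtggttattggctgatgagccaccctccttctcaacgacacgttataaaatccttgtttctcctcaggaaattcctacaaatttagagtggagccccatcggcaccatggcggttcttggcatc
Cyp1a2 (chr9:57683606-57683905, minus strand): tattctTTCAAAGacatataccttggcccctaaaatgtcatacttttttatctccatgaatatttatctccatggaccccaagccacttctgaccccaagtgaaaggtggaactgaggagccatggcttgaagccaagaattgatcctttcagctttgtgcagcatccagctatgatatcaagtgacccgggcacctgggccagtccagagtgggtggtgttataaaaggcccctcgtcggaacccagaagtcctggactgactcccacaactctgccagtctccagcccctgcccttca
Lect2 (chr13:56548489-56548788, minus strand): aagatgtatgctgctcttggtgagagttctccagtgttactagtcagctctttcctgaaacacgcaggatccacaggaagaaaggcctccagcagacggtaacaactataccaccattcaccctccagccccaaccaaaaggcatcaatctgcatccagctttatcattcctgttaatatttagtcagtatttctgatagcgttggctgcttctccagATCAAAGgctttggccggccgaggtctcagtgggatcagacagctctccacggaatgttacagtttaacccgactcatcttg
Sp5 (chr2:70474673-70474972, plus strand): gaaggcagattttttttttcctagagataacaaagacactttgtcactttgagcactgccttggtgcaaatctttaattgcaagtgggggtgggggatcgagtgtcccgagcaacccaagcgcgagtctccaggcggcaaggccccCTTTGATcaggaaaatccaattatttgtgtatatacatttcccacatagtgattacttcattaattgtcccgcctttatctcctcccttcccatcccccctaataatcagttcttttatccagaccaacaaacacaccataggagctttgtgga
Hal (chr10:93488518-93488817, plus strand): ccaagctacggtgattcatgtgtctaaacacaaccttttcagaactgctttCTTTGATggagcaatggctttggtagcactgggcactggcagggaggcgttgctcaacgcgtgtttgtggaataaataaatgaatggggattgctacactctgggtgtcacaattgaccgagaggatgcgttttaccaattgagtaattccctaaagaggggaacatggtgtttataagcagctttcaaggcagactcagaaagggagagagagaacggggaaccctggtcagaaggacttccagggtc

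Cytochromes P450 of families 1 to 3 were called in both directions, 7 of 34 tested higher in zone 3 and 2 higher in zone 2, with a median of -0.72 (-1.20 without zone 3 replicate 3 and -0.24 without zone 2 replicate 3). The shares over all genes tested were 0.381% and 0.227%. Cyp2e1, which oxidises ethanol and small solvents, was the most abundant of the zone 3 genes, at 1564, 1190.2 and 687 FPKM in zone 2 and 8168, 8257 and 4105 FPKM in zone 3. Every zone 3 library exceeded every zone 2 library, and the difference was -2.58 ± 0.41 (adjusted p = 0.00122). Cyp1a2, an inducible enzyme of caffeine and aromatic amine metabolism, had 104, 61.3 and 70.7 FPKM in zone 2 and 478, 326 and 477 FPKM in zone 3, a difference of -2.44 ± 0.53 (adjusted p = 0.0256), not called without zone 2 replicate 2 or 3 or zone 3 replicate 1, 2 or 3 (-2.66 to -2.28). Ahr, the receptor known to induce Cyp1a2, had 11.2, 11.9 and 6.49 FPKM in zone 2 and 45.6, 55.4 and 27.01 FPKM in zone 3, and its difference of -1.99 ± 0.30 (adjusted p = 6.58e-04) was kept in all 6 fits that left out a library. It was the only one called of 6 xenobiotic receptors and reductase genes, all of which had differences below 0.

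The Cyp2c genes tested lie on chromosome 19, all but Cyp2c23 in 1 cluster, and their sequences are similar enough that reads may be split between them. Of 12 tested, 5 were called higher in zone 3 (0.381% over all genes tested), none higher in zone 2, and 11 had a difference below 0. Cyp2c69 (chr19:39842814-39886799, minus strand) had 54.7, 31.3 and 39.6 FPKM in zone 2 and 583, 515 and 403 FPKM in zone 3 and a difference of -3.57 ± 0.33 (adjusted p = 7.83e-07), called in every fit that was run for it. Cyp2c37 had 52.4, 22.5 and 20.6 FPKM in zone 2 and 354, 262 and 191 FPKM in zone 3, a difference of -3.12 ± 0.59 (adjusted p = 0.00811), not called without zone 2 replicate 2 or zone 3 replicate 1 (-3.54 to -2.88). Cyp2c38 had 19.7, 11.9 and 6.70 FPKM in zone 2 and 112, 75.0 and 47.2 FPKM in zone 3, with -2.55 ± 0.55 (adjusted p = 0.0239), not called without zone 2 replicate 2 or 3 or zone 3 replicate 1 or 2 (-2.90 to -2.19). Cyp2c39 (-1.92) and Cyp2c67 (-1.99) were the other calls, and both were lost without zone 3 replicate 1 (differences of -2.28 to -1.52 for Cyp2c39 and -2.37 to -1.57 for Cyp2c67 over the 6 fits). Cyp2c50 had 53.7, 25.8 and 36.2 FPKM in zone 2 and 289, 226 and 196 FPKM in zone 3, a difference of -2.63 ± 0.71 (adjusted p = 0.142), and passed with the replicate block (adjusted p = 0.00191). By contrast Cyp2c29, at 441, 251 and 202 FPKM in zone 2 and 383, 274 and 250.4 FPKM in zone 3, and Cyp2c40, at 124, 106 and 60.6 FPKM in zone 2 and 146, 96.2 and 67.1 FPKM in zone 3, had overlapping zones, with differences of -0.08 and -0.08. Cyp2c40 is the nearest Cyp2c neighbour of Cyp2c69 on the chromosome.

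Of the conjugating enzymes, 2 glutathione transferases and 1 sulfotransferase were called, all higher in zone 3. Gstm2, a glutathione transferase, had 30.7, 27.1 and 38.5 FPKM in zone 2 and 188, 163 and 219 FPKM in zone 3, a difference of -2.53 ± 0.34 (adjusted p = 1.26e-04), and replicate 3 had the highest level of its zone in both zones. Gstm6 had 23.7, 21.8 and 18.2 FPKM in zone 2 and 70.7, 66.6 and 76.4 FPKM in zone 3, with -1.71 ± 0.37 (adjusted p = 0.0244), not called in any of the 6 fits that left out a library (-1.79 to -1.60). These 2 were the calls among 17 glutathione transferases, whose median was -0.70, and Gstm reads may be shared between the near-identical members. With the replicate block 4 were called, among them Gstm1 (adjusted p = 0.0182) and Gstm3 (adjusted p = 0.00138). Sult3a2, a sulfotransferase, had 91.0, 105 and 19.2 FPKM in zone 2 and 548, 575 and 177 FPKM in zone 3, a difference of -2.72 ± 0.57 (adjusted p = 0.0205), not called without zone 2 replicate 3 or zone 3 replicate 1 or 2 (-3.27 to -1.96). Its relative Sult3a1, at 206, 228 and 59.0 FPKM in zone 2 and 1024, 1192 and 371 FPKM in zone 3, had non-overlapping zones and a difference of -2.44 ± 0.68 (adjusted p = 0.178), which passed with the block (adjusted p = 1.71e-05). Sult5a1, at 4.07, 14.1 and 4.19 FPKM in zone 2 and 0.157, 3.24 and 0.567 FPKM in zone 3, was called higher in zone 2 with the block (adjusted p = 0.0327). Of the 13 sulfotransferases tested 5 had differences above 0 and 8 below, with a median of -0.10 (0.38 without zone 2 replicate 3). None of 14 glucuronosyltransferases was called, although 13 had differences below 0 (median -0.56, -0.95 without zone 2 replicate 1 and -0.21 without zone 2 replicate 3).

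Lect2 (chr13:56542464-56548502, minus strand), a secreted hepatokine, was at 13.7, 12.04 and 16.9 FPKM in zone 2 and 138, 129 and 130.3 FPKM in zone 3. Its 3 libraries per zone lay close together and the difference was -3.14 ± 0.37 (adjusted p = 1.65e-05). Gulo, the last enzyme of vitamin C synthesis, had 161, 111 and 63.6 FPKM in zone 2 and 465, 470.1 and 332 FPKM in zone 3 and a difference of -1.99 ± 0.33 (adjusted p = 0.00218). Rgn, regucalcin, which acts one step before Gulo, had 444, 306 and 237 FPKM in zone 2 and 1159.8, 1023 and 955 FPKM in zone 3 and a difference of -1.71 ± 0.32 (adjusted p = 0.00693), not called without zone 3 replicate 1 (-1.95 to -1.50). Pnliprp1 (chr19:58728887-58744169, plus strand), a lipase-related gene best known from the pancreas, was at 0, 0.259 and 0.146 FPKM in zone 2 and 4.96, 3.16 and 4.33 FPKM in zone 3, with a difference of -2.17 ± 0.20 (adjusted p = 7.83e-07).

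The other calls in favour of zone 3 were named after their values were seen. Blvrb, a biliverdin reductase, had 45.4, 29.7 and 30.5 FPKM in zone 2 and 103, 92.0 and 70.0 FPKM in zone 3 and a difference of -1.31 ± 0.27 (adjusted p = 0.0192), not called without zone 2 replicate 2 or 3 or zone 3 replicate 1 or 2 (-1.50 to -1.19). Nrn1 (-1.62), Ttc38 (-1.47), Aspscr1 (-1.40), Nxpe2 (-1.40), Fitm1 (-1.93), Rdh1 (-1.185), Chrdl2 (-1.27) and Ank (-0.88) each lost the call without zone 3 replicate 1, among other libraries. Col23a1, a collagen gene, was at 0.0465, 0.0445 and 0.188 FPKM in zone 2 and 1.28, 1.29 and 3.04 FPKM in zone 3, and its difference of -1.34 ± 0.24 (adjusted p = 0.0043) was kept in all 6 fits.

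A small set of genes reached 1 FPKM in one zone and not in the other. In 26 genes all zone 2 libraries reached at least 1 FPKM and all zone 3 libraries stayed below it, and 7 of these were called (Aldh1b1, C9, Sdsl, Eci3, Etnppl, 4933427D14Rik and Ptpre). In 19 genes the reverse held, and 7 of these were called (Slc13a3, Slc22a3, Tnfrsf19, Pnliprp1, Col23a1, Sp5 and Chrdl2). At an estimated 11.8 to 33.2 megareads, 1 read on a transcript of 1 kilobase was worth 0.0301 to 0.0846 FPKM, far below the 1 FPKM used here.

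Some programmes known for their zonation had no called gene. In simulated data the fit called 22.7% of genes with a true change of 1 log2 unit, so a missing call does not show equal levels. None of the 8 urea cycle genes was called, with a median of 1.15. Cps1, carbamoyl phosphate synthetase, which starts the cycle, had 869, 1005 and 218 FPKM in zone 2 and 188, 254 and 66.0 FPKM in zone 3 and a difference of 1.96 ± 0.50 (adjusted p = 0.1). Its zone 2 replicates 1 and 2 lay well above every zone 3 library, and zone 2 replicate 3 lay within the zone 3 range. The replicate block called 3 of the 8, among them Cps1 (adjusted p = 0.0153) and Asl (adjusted p = 0.045), and the fit without the libraries with Y-linked transcripts called 4, among them Cps1, Asl and Ass1 (adjusted p = 0.00231 for Ass1).

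The 6 midlobular markers all had positive differences and none was called (median 1.47, between 0.65 without zone 3 replicate 3 and 2.35 without zone 2 replicate 3). Hamp, the iron hormone hepcidin, was at 337, 1380.1 and 21.8 FPKM in zone 2 and 12.1, 133 and 4.41 FPKM in zone 3, with a difference of 3.38 ± 1.16 (adjusted p = 0.502). Hamp2 had 1616, 1038 and 425 FPKM in zone 2 and 251, 187 and 95.6 FPKM in zone 3, a difference of 2.43 ± 0.64 (adjusted p = 0.123), and Igfbp2, a binding protein of insulin-like growth factors, had 1689, 1116 and 194 FPKM in zone 2 and 496, 306 and 65.9 FPKM in zone 3, a difference of 1.72 ± 0.70 (adjusted p = 0.832). Within each replicate number, zone 2 exceeded zone 3 for all 3 genes. The replicate block called these 3 (adjusted p = 1.07e-04, 0.00387 and 0.028).

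No gene of gluconeogenesis and glycogen (17 tested, median 0.06), glycolysis (16, 0.12), lipogenesis (15, 0.02), cholesterol synthesis (21, 0.27), coagulation (21, -0.03) or the hypoxia response (14, 0.03) was called. These medians moved with single libraries. That of gluconeogenesis was -0.08 without zone 2 replicate 1 and 0.64 without zone 2 replicate 3, and that of glycolysis was 0.01 without zone 3 replicate 1. Without zone 3 replicate 2 and zone 3 replicate 3 in turn, lipogenesis gave -0.20 and 0.34 and cholesterol synthesis -0.15 and 0.76. Coagulation gave -0.40 without zone 3 replicate 3 and 0.46 without zone 2 replicate 3, and the hypoxia response gave -0.39 without zone 2 replicate 3 and 0.16 without zone 2 replicate 2. Without the libraries with Y-linked transcripts, 1 gene of the gluconeogenesis list, the enzyme Fbp1 (adjusted p = 0.00629 by limma), and 1 gene of the glycolysis list were called higher in zone 2. Pck1, which commits carbon to gluconeogenesis, had 999.8, 1148 and 213 FPKM in zone 2 and 699, 504 and 122 FPKM in zone 3, and G6pc, which releases free glucose, had 305, 109 and 29.4 FPKM in zone 2 and 132, 49.5 and 22.3 FPKM in zone 3. For both genes the zones overlapped, zone 2 was above zone 3 in each of the 3 same-numbered pairs, and neither passed with the block (adjusted p = 0.997 and 0.806). All 21 genes of fatty acid oxidation and ketogenesis had differences below 0 (median -0.31), but the median was -0.83 without zone 3 replicate 3, 0.54 without zone 2 replicate 3 and 0.02 without the libraries with Y-linked transcripts. Among 15 bile acid genes none was called (median -0.57, and 0.09 without zone 2 replicate 3). Cyp7a1, the rate-limiting enzyme of bile acid synthesis, had 15.5, 16.6 and 17.8 FPKM in zone 2 and 48.6, 43.0 and 59.2 FPKM in zone 3, a difference of -1.53 ± 0.75 (adjusted p = 1).

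Genes of the cell cycle were examined because the study concerns hepatocyte proliferation. By Ki67 staining and EdU uptake, it reports positive hepatocytes around the central vein at dpc16 and a return to the NP state in the other zones. Those are counts of stained hepatocytes, whereas the values here are RNA levels of whole areas, in which a missing call does not show equal proliferation. Of 36 proliferation genes 22 were tested, none was called, and 18 had a difference below 0 (median -0.29, -1.04 without zone 2 replicate 3 and 0.30 without zone 3 replicate 3). Mki67, the gene of the Ki67 antigen, had 2.04, 0.474 and 4.002 FPKM in zone 2 and 2.97, 1.39 and 12.3 FPKM in zone 3, and within each replicate number zone 3 was higher. Its difference was -0.83 ± 0.62 (adjusted p = 1). The list summed to 295.3 and 262.0 FPKM in zone 2 and zone 3 replicate 3 and to 40.3 to 64.6 FPKM in the other 4 libraries, the same libraries that hold the connective tissue transcripts, and the part of those transcripts in the sum was not tested. Hmmr, a hyaluronan receptor that the study followed, did not reach the filter, with 0.115, 0.351 and 2.48 FPKM in zone 2 and 0.855, 0.326 and 3.84 FPKM in zone 3. The study also names Glul, Cyp1a2, Axin2, Tbx3 and Cyp17a1 as genes with zonal expression in these samples, so they are no independent evidence of a direction. Of these 5 tested genes, 3 were called higher in zone 3 and 1 in zone 2, and Tbx3 was called with the block.

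Few markers of non-parenchymal cells were called. All 12 Kupffer cell markers, genes of the resident liver macrophage, had positive differences (median 1.12), and 2 were called higher in zone 2 (0.227% over all genes tested). Clec4f, a lectin of Kupffer cells, had 60.6, 57.7 and 15.5 FPKM in zone 2 and 12.3, 12.9 and 9.70 FPKM in zone 3, a difference of 1.64 ± 0.35 (adjusted p = 0.0256), and Cd68 had 10.04, 9.05 and 6.24 FPKM in zone 2 and 3.13, 3.73 and 3.75 FPKM in zone 3, a difference of 1.04 ± 0.23 (adjusted p = 0.0346). Both calls were lost without zone 2 replicate 1 or 2 or zone 3 replicate 1, 2 or 3 (1.31 to 2.26 and 0.92 to 1.22), and Cd68 also after quantile normalisation (adjusted p = 0.144). Without the libraries with Y-linked transcripts 6 of the 12 were called. The list summed to 341.0, 316.0 and 91.8 FPKM in zone 2 and to 106.3, 129.7 and 58.1 FPKM in zone 3, so zone 2 replicate 3 was below zone 3 replicates 1 and 2.

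No gene was called among 14 sinusoidal endothelium (median -0.07), 10 stellate cell (-0.07), 6 hepatocyte (-0.21), 9 connective tissue and smooth muscle (-0.37), 3 portal endothelium (0.36), 5 erythroid (-0.34), 3 neutrophil (0.27) or 2 bile duct markers (0.35), nor for the single lymphocyte marker tested (0.13). The medians of these 9 lists each changed sign when 1 library was left out. This was zone 2 replicate 3 for sinusoidal endothelium, stellate cells, hepatocytes and erythroid cells (0.33, 0.04, 0.45 and 0.80), zone 3 replicate 3 for neutrophils (-0.52), zone 3 replicate 2 for portal endothelium and bile duct (-0.02 and -0.15) and zone 2 replicate 2 for the lymphocyte marker (-0.15). The connective tissue median was -2.15 without zone 2 replicate 3 and 1.45 without zone 3 replicate 3. Bile duct markers summed to 67.8 and 98.4 FPKM in replicate 3 of zones 2 and 3 and to 7.64 to 13.5 FPKM in the others.

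The zone 1 means did not enter the difference between zones 2 and 3, although the zone 1 libraries shared in the estimate of the spread behind the calls. The zone 1 mean exceeded the zone 2 mean for 21 of the 25 genes higher in zone 2, and lay below it for 32 of the 42 genes higher in zone 3, while over all tested genes the shares were 48.0% above and 52.0% below. By limma, 13 of the 11037 genes differed between zones 1 and 2 (0.118%), 5 higher in zone 1 (0.0453%) and 8 lower (0.0725%), and 577 had an unadjusted p under the threshold. Of the 25, 2 were among those higher in zone 1, and of the 42, 7 were among those lower in zone 1. None of the 67 genes was called the other way. These 2 were Aldh1b1 (zone 1 minus zone 2, 2.64, adjusted p = 0.00938) and Eci3 (2.51, adjusted p = 0.00243). Cyp2e1, Lect2, Lhpp, Cyp2c69, Gulo, Gstm2 and Sult3a2 were the 7, led by Cyp2e1 (-3.75, adjusted p = 7.53e-05) and Lect2 (-2.98, adjusted p = 2.49e-04). The zone 1 mean of Lect2 was 0.929 ± 0.284 FPKM (SD, n = 3). Glul showed another shape, with 128 ± 16.2 FPKM (SD, n = 3) in zone 1 and a zone 1 minus zone 2 difference of 0.05, adjusted p = 0.981. The zone 1 and zone 2 comparison shares the zone 2 libraries with the main one.

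**Figure D4:**
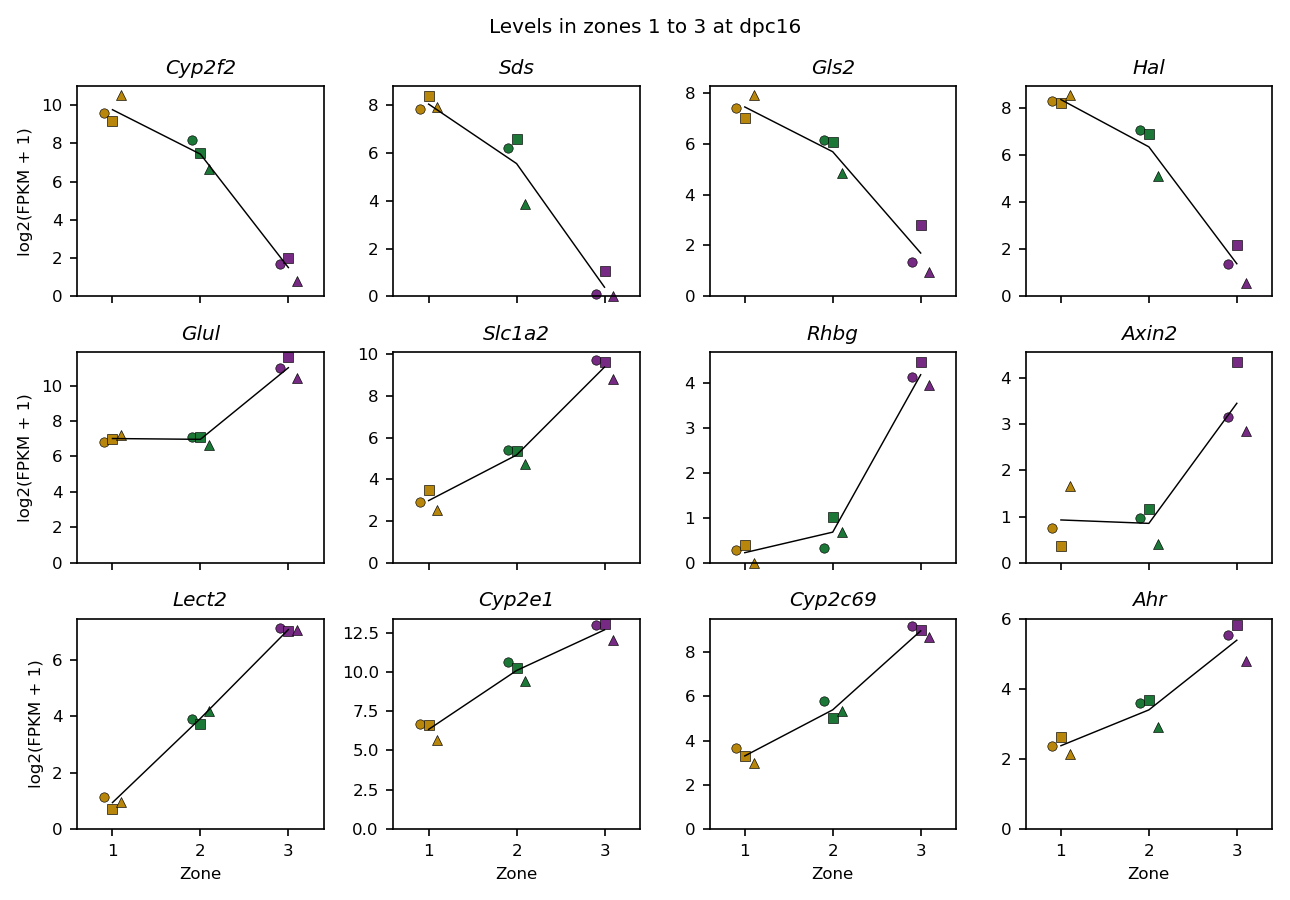
Levels of 12 called genes in zones 1 to 3 at dpc16 (vertical axes, log2(FPKM + 1)), with 1 symbol per library and a line through the zone means. Lect2 and Cyp2e1 are higher at each step towards zone 3, while Glul, Rhbg and Axin2 are at a similar level in zones 1 and 2 and higher in zone 3, and the upper 4 genes are lower at each step.

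The same difference between zones 2 and 3 was read in the NP and dpc8 libraries, which share none with dpc16. All stages were read from the same fit, with a shared estimate of the spread of each gene. The genes were also filtered on dpc16 levels, so the calls at the 3 stages are not independent. It called 45 genes in NP (0.408%; 27 higher in zone 2, 0.245%, and 18 in zone 3, 0.163%) and 42 at dpc8 (0.381%; 17 higher in zone 2, 0.154%, and 25 in zone 3, 0.227%). Of the 25 genes higher in zone 2 at dpc16, 25 had the same sign in NP and 23 at dpc8, and 17 and 15 were called there. Of the 42 higher in zone 3, 41 had the same sign in NP and 42 at dpc8, and 12 and 19 were called. Over all tested genes the difference was above 0 for 49.5% in NP and 50.3% at dpc8. Called at all 3 stages in the same direction were 27 genes, 15 higher in zone 2 and 12 higher in zone 3. The 5 per direction with the largest smallest difference were Cyp2f2, Sds, Hsd17b6, Aldh1b1 and Hal, and Slc1a2, Glul, Rhbg, Slc13a3 and Lhpp. Glul, for example, had differences of -4.04 at dpc16, -4.43 in NP and -5.04 at dpc8.

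Of the 67 genes, 31 were called in neither NP nor dpc8, 8 higher in zone 2 and 23 higher in zone 3. A call at one stage alone does not show that the stages differ, and the difference between stages was tested directly. Against NP it passed for 2 genes (0.0181%) and against dpc8 for 1 (0.00906%), all in favour of zone 3 at dpc16, while 282 and 147 genes had an unadjusted p under the threshold. Pnliprp1 was listed at 0 in all NP libraries of zones 2 and 3. At dpc8 it was listed at 0, 0 and 0 FPKM in zone 2 and 0, 0.241 and 0.477 FPKM in zone 3. The difference between zones changed by -2.17 ± 0.28 from NP (adjusted p = 0.00136) and by -1.88 ± 0.28 from dpc8 (adjusted p = 0.0129). Pnliprp1 passed the filter only through its dpc16 zone 3 values. With both zones at 0 in NP, its change from NP restates the dpc16 difference and is no separate support.

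Cyp2c69 was high in both zones outside late pregnancy. In NP it was at 405, 452 and 535 FPKM in zone 2 and 634, 753 and 901 FPKM in zone 3, and at dpc8 at 626, 282 and 759 and 1086, 900.4 and 1319 FPKM. All 3 zone 2 libraries at dpc16, at 54.7, 31.3 and 39.6 FPKM, lay below every NP and dpc8 library of either zone. The difference between zones changed by -2.86 ± 0.46 from NP (adjusted p = 0.0174), and by -2.48 ± 0.46 from dpc8 without a call (adjusted p = 0.119). Against NP, 1 gene was called without zone 2 replicate 2 or 3 or zone 3 replicate 1 or 2 of either stage. Against dpc8, none was called without zone 2 replicate 1 or 3 or zone 3 replicate 1 or 3 at dpc16, nor without zone 2 replicate 1 or 3 or zone 3 replicate 1 or 2 at dpc8, and 2 were called without dpc8 zone 2 replicate 2. With only the libraries of the compared stages none was called in either comparison.

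**Figure D5:**
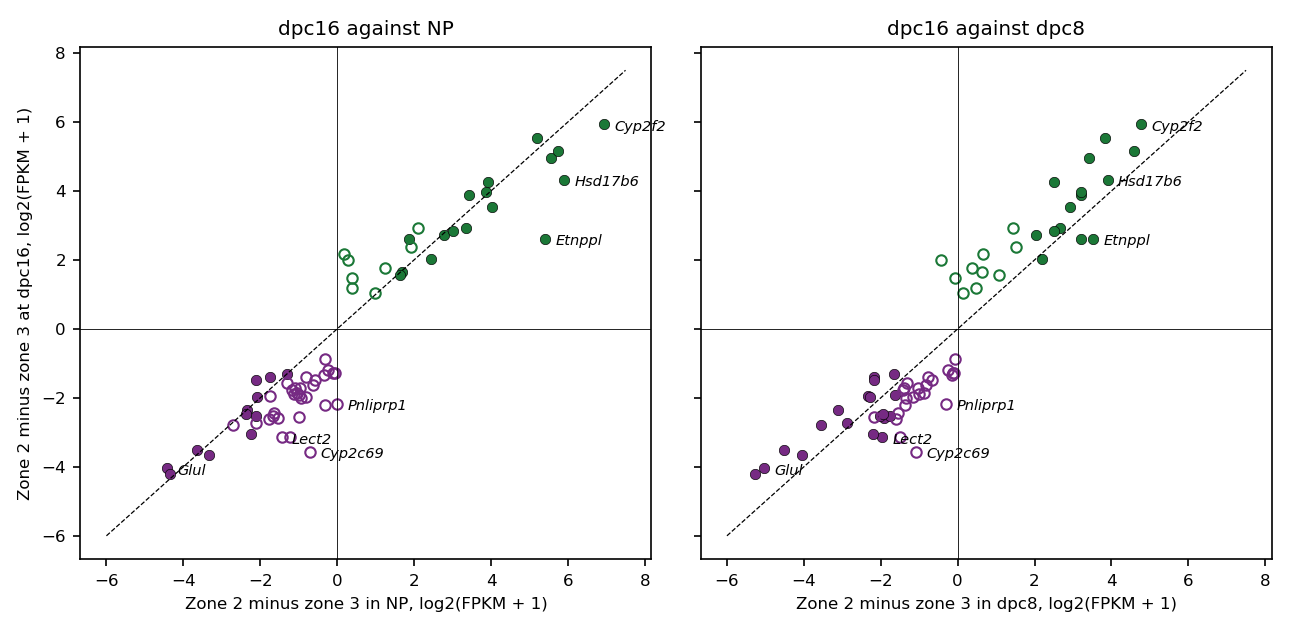
Difference between zone 2 and zone 3 at dpc16 (vertical axis) against the same difference in NP (left) and at dpc8 (right) for the 67 genes called at dpc16, all on the log2(FPKM + 1) scale. Filled points were called at the other stage too, the dashed line marks equal differences, and Cyp2c69 and Pnliprp1 lie well below it in both panels.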

How the data were processed

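Per the labels, areas of zones 1 to 3 were laser-microdissected from acetone-fixed frozen liver sections, and libraries were made from total RNA after ribosomal RNA removal. The authors trimmed reads with cutadapt, aligned them with HISAT2 (version 2.1.0) to mm10 and computed FPKM per protein-coding gene (GENCODE vM22) with Cufflinks (version 2.2.1) and Cuffdiff. The deposited table holds FPKM for 27 libraries and no counts, and the strand used in counting is not given in the sources used here. Here log2(FPKM + 1) was fitted with limma (version 3.58.1, R 4.3.3) on 9 group means over all 27 libraries (18 residual degrees of freedom), for genes with at least 1 FPKM in at least 3 of the 6 dpc16 zone 2 and zone 3 libraries, with Benjamini-Hochberg adjustment over 11037 genes and a threshold of 0.05.

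Depth was estimated from the steps between low values, of which 90.3% to 96.6% lay on whole steps in the 27 libraries (7.53 to 33.2 megareads). Same-numbered zone 2 and zone 3 libraries had correlated deviations in every dpc16 pair. With replicate 3 apart in both zones and deviations that cancel out within a zone, this cannot show that the other numbers are paired. The block takes the pairing from the labels' experiment numbers alone. The fit was tested on simulated data with known changes. It called 22.7% of 97 genes with a true change of 1 log2 unit and 72.8% of 103 genes with a change of 2. Of 10837 unchanged genes it called 5. The simulated noise was independent between libraries and held no shared deviation of the replicate 3 pair. Named genes were the 12 per direction with the largest differences among called genes without overlap, 5 per direction shared by all stages, up to 5 per direction for each contrast between stages, and list members. Members and lists were chosen with earlier results of these data known. Alternatives were another choice of samples, a replicate block, a pseudocount of 0.1, no filter, quantile normalisation, array weights, leaving out each library and leaving out the libraries with Y-linked transcripts. Coordinates are from GENCODE vM21 on the same build, which matched all 67 called genes, 29 of which overlap another annotated gene. Some genes of the lists are not reported here.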

Additional observations from a re-analysis of the deposited data

Results flagged for a closer look

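The difference between zones 2 and 3 differed between stages for Pnliprp1 and Cyp2c69 by the interaction test in limma. For Pnliprp1 the change on the log2(FPKM + 1) scale was -2.17 from NP to dpc16 (adjusted p = 0.00136) and -1.88 from dpc8 to dpc16 (adjusted p = 0.0129). It was -2.86 from NP to dpc16 for Cyp2c69 (adjusted p = 0.0174). At dpc16 all 3 zone 3 libraries exceeded all 3 zone 2 libraries for both genes, while in NP Pnliprp1 was listed at 0 in both zones. Pnliprp1 passed the filter only through its dpc16 zone 3 values, so its change from NP restates the dpc16 difference and is no separate support.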

How the results depend on the processing

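None of the 67 called genes reversed its direction under any alternative, whereas medians of lists with few or no calls did when 1 library was left out, among them fatty acid oxidation (-0.31 to 0.54 without zone 2 replicate 3) and proliferation (-0.29 to 0.30 without zone 3 replicate 3). At dpc16 the main 67 calls became 11 with only the 6 libraries compared, 237 with array weights (123 higher in zone 2, 114 in zone 3), and 108 without the libraries with Y-linked transcripts, 62 with a pseudocount of 0.1 (30 and 32), and 31 to 89 when 1 library was left out. In NP the 45 calls became 91 with array weights (58 and 33), 100 without the Y-linked libraries (61 and 39) and 30 to 47 when 1 library was left out. At dpc8 the 42 calls became 94 with array weights (45 and 49) and 25 to 38 when 1 library was left out, the lowest without zone 3 replicate 3. The 27 genes shared by all stages became 6 with only the libraries compared, 49 with array weights, 45 without the Y-linked libraries and 19 to 27 when 1 library was left out. The 2 genes that differed between dpc16 and NP became 0 with only the libraries compared, 1 with a pseudocount of 0.1, 4 with no filter, 1 without the Y-linked libraries and 1 to 2 when 1 library was left out. The 1 gene between dpc16 and dpc8 became 0 with only the libraries compared, 0 with a pseudocount of 0.1, 3 with no filter, 2 with quantile normalisation, 2 with array weights and 0 to 2 when 1 library was left out. The cause was not tested.

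With the replicate block the counts were 120 at dpc16 (49 and 71), 110 in NP (68 and 42) and 68 at dpc8 (20 and 48), and at dpc16 it was 64 with the 9 dpc16 libraries alone (18 and 46) and 163 with only the 6 compared, an alternative chosen after seeing the data, as was leaving out the NP and dpc8 libraries. The pairing correlations were 0.30, 0.08 and -0.06 in NP and 0.40, 0.31 and 0.37 at dpc8. For the 67 called genes and Tbx3, and for the counts of called members in lists that had any, 808 recomputed values stayed on their side of the threshold or within 1.5 times, 264 lost the call, 4 (all of Tbx3) gained it and 28 list counts moved further. Calls gained by other genes are in the counts of genes called. Depth limits the values near that of 1 read, 0.0301 to 0.0846 FPKM for a transcript of 1 kilobase in the 6 libraries compared at dpc16.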
